A study of Mus musculus with 9 samples.

Results

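The tudor domain genes of germ granules described here are Tdrd1, Tdrd3, Tdrd5, Tdrd6, Tdrd7, Tdrd9 and Tdrd12, 7 of the 19935 genes measured. They were chosen by name, as the array rows whose gene symbol in the probe table is exactly 1 of these 7, and each had 1 row of its own. The samples were whole testes of male Swiss albino mice of an inbred line, aged 8, 16 and 24 days, with 3 arrays per age, which the series' design text calls biological replicates. The mice were untreated and carried no stated mutation or transgene, and the sources used here do not say whether an array held RNA of 1 animal or of a pool. The ages lie in the first wave of spermatogenesis, in which the germ cells of the young testis advance together, and the design compares 16 with 8 days, 24 with 16 days and 24 with 8 days.

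A tudor domain is a small fold that binds methylated arginine or lysine. In germ cells, PIWI proteins carry methylated arginines near their amino-terminal end, and tudor proteins dock there and gather the piRNA machinery in granules, the intermitochondrial cement of spermatogonia and spermatocytes and the chromatoid body of spermatids. Among the known roles of piRNAs is the silencing of transposons, and mice that lack single germ cell tudor proteins are known for male sterility. TDRD3 is the exception among the 7, since it is made in most tissues and works with the topoisomerase TOP3B on other RNAs and at promoters.

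Of the 7 genes, 6 have an entry in the RefSeq promoter table (GRCm38.p6), with 11 windows in all, each reaching from 250 bases before to 50 bases after a start site; Tdrd6 has none. The windows were searched on both strands for 4 short strings of letters. The MYB core AACNGTT and the cAMP response element TGACGTCA were in none of the 11 windows, and are in 4.45% and 1.79% of all 32851 windows. The shorter element CGTCA, which lies within TGACGTCA, was in 3 of the 11 windows, 1 each of Tdrd1, Tdrd5 and Tdrd7, and is in 20.8% of all windows. The letters GCGC, any 2 bases and GCGC again, as in sites of the factor NRF1 and the same on both strands, were also in a window of these 3 genes, in 4 of 11 windows, and are in 6.23% of all windows. By gene that is 3 of the 6 with a window, beside 7.0% of all genes. These shares take no account of GC content or of the number of windows per gene, and enrichment was not tested. No window of Tdrd3, Tdrd9 or Tdrd12 holds these letters. A window with the letters is printed for each of Tdrd1, Tdrd5 and Tdrd7, 5′ to 3′ on the strand of the gene, with the NRF1 letters in capitals. Their GC content was 64.3% for Tdrd1 (chr19:56826025-56826324, plus strand), 76.0% for Tdrd5 (chr1:156303299-156303598, minus strand) and 63.0% for Tdrd7 (chr4:45972047-45972346, plus strand).
Tdrd1: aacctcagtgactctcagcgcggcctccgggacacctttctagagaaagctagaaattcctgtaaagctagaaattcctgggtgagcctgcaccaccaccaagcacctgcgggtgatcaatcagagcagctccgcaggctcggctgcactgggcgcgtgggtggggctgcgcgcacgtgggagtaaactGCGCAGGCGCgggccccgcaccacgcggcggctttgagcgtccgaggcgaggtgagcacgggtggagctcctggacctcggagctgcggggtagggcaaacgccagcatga
Tdrd5: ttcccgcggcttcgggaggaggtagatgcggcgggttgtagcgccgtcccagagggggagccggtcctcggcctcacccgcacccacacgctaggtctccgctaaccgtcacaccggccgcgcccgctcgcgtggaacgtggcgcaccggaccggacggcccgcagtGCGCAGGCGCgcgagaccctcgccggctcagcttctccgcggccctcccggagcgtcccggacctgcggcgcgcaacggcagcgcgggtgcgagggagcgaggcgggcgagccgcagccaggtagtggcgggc
Tdrd7: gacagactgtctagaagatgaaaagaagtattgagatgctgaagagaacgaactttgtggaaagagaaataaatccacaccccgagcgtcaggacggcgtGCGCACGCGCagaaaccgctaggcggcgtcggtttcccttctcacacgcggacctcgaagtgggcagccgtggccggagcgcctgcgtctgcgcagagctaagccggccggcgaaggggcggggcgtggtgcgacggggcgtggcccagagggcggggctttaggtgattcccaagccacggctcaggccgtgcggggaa
Counted from the start site, the match began at position -61 in Tdrd1, -83 in Tdrd5 and -150 in Tdrd7. An overlapping window of Tdrd1 holds the same match, and other start sites of Tdrd1 and Tdrd7 have windows that lack it. The match describes these letters and was not tested as a binding site.

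All values are log2 values relative to the median of the gene's row over the 9 arrays, so a value of 0 is the level of the middle array and 1 is a doubling of it. They give differences between ages and no expression level, and the levels of different genes cannot be compared. Each row had a blank cell for its median array, read as 0, and Tdrd12 alone had a further blank. In whole testis, more cells of a type and more RNA per cell cannot be told apart. The arrays are named by the number in their title, and replicate 3 is the array with no number. A pair of arrays stood apart, replicate 1 of 8 days and replicate 2 of 16 days. The median over 1027 olfactory receptor genes was 0.17 in each of them and lay between -0.05 and 0.03 elsewhere, and results are also given with this pair left out. Markers of spermatocytes and spermatids changed with age, as described after the tudor genes.

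The tudor genes were low at 8 days, and 6 of the 7 were higher at 16 days, Tdrd3 being the one not called. By limma, with Benjamini-Hochberg adjustment over all genes and a threshold of 0.05, 10.4% of all genes were higher at 16 days. The rises ranged from 0.83 for Tdrd7 to 3.62 for Tdrd6, and the median change of the 7 genes was 1.13, beside -0.02 for all genes. The arrays of 16 days lay above those of 8 days without overlap in the same 6 genes, which holds for 14.7% of all genes. In the later interval, 2 of the 7, Tdrd6 and Tdrd7, were higher at 24 than at 16 days, where 13.2% of all genes were, and the median change was 0.26, beside -0.16 for all genes. Their arrays of the 2 ages did not overlap, as in 16.5% of all genes. A rise in both intervals was called in 6.01% of all genes, and a rise by 16 days with no call after it, which 4 of the 7 showed, in 4.12%. All 7 were higher at 24 than at 8 days, where 19.2% of all genes were, with Tdrd3 only just past the threshold. With each array centred on its median the counts were the same in all 3 comparisons.

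**Figure D1:**
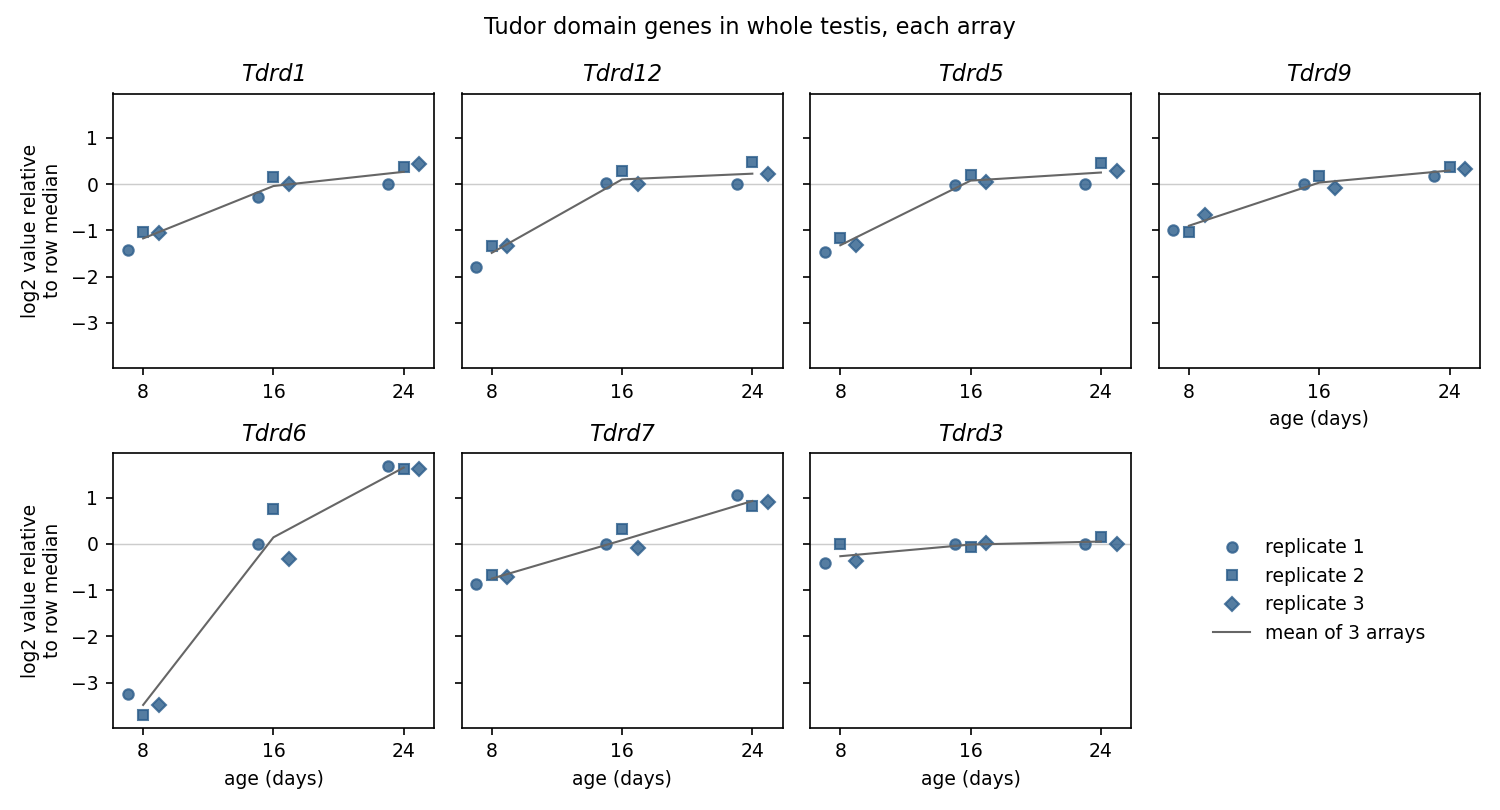
Log2 value relative to the row median (vertical axis) of each of the 7 tudor domain genes against age in days, with a point for each array (shape gives the replicate) and a line through the mean of 3 arrays. Tdrd6 spans the widest range, with a mean of -3.48 at 8 days, Tdrd7 climbs over both intervals, and the arrays of Tdrd3 overlap between ages.

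Tdrd1, Tdrd12, Tdrd5 and Tdrd9 were called higher by 16 days and had no called change after it. With each array centred on its median their changes after 16 days were 0.39, 0.21, 0.26 and 0.35, also not called. Tdrd1 (gene ID 83561, chromosome 19) encodes a protein of the intermitochondrial cement that binds the PIWI protein MILI. Its values were -1.42, -1.04 and -1.06 in replicates 1, 2 and 3 of 8 days, -0.27, 0.15 and 0 at 16 days, and 0.00, 0.36 and 0.44 at 24 days. The 3 arrays of 8 days were the lowest, and the arrays of 16 and 24 days overlapped. Tdrd1 rose by 1.13 ± 0.16 between 8 and 16 days (moderated standard error, 3 arrays per age; limma adjusted p 0.000684), or 2.19-fold. The further change to 24 days was 0.31 ± 0.16 (adjusted p 0.152), with a 95% interval from -0.04 to 0.66.

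Tdrd12 (gene ID 71981, chromosome 7) encodes a tudor protein with a helicase-like region that is needed for piRNAs loaded on MIWI2. It measured -1.79, -1.33 and -1.33 in the arrays of 8 days, 0.03, 0.28 and 0 in those of 16 days, and 0, 0.47 and 0.21 in those of 24 days. Again 8 days stood below both later ages, which overlapped. The rise by 16 days was 1.59 ± 0.16, or 3.01-fold (adjusted p 7.93e-05), the largest of the 7 after that of Tdrd6, and the change after 16 days was 0.12 ± 0.16 (adjusted p 0.539).

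Tdrd5 (gene ID 214575, chromosome 1) encodes a protein that joins a tudor domain to LOTUS domains, which bind RNA and helicases, and is known for piRNA production in spermatocytes and for spermatid development. It had -1.47, -1.16 and -1.32 at 8 days, -0.02, 0.20 and 0.05 at 16 days, and 0, 0.47 and 0.29 at 24 days. All 3 arrays of 8 days were far below the rest, and 16 and 24 days overlapped. Tdrd5 rose by 1.40 ± 0.13 by 16 days, or 2.63-fold (adjusted p 5.26e-05), and its difference after that was 0.17 ± 0.13 (adjusted p 0.305).

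Tdrd9 (gene ID 74691, chromosome 12) encodes an RNA helicase with a tudor domain that acts with MIWI2 in transposon silencing. Its arrays of 8 days had -0.998, -1.04 and -0.66, those of 16 days 0, 0.18 and -0.07, and those of 24 days 0.18, 0.38 and 0.33. The arrays of 8 days were the lowest, and 16 and 24 days touched, with replicate 1 of 24 days just below replicate 2 of 16 days. The rise was 0.93 ± 0.12 by 16 days, or 1.91-fold (adjusted p 0.00045), and the difference between 24 and 16 days was 0.26 ± 0.12 (adjusted p 0.12).

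Tdrd6 and Tdrd7 went on rising after 16 days. Tdrd6 (gene ID 210510, chromosome 17) encodes a long protein of many tudor domains that binds MIWI. It measured -3.25, -3.71 and -3.49 at 8 days, 0, 0.74 and -0.32 at 16 days, and 1.69, 1.63 and 1.63 at 24 days. The 3 ages did not overlap, and the spread was widest at 16 days, with SDs of 0.23, 0.55 and 0.04 at 8, 16 and 24 days. Tdrd6 rose by 3.62 ± 0.23 by 16 days, or 12.3-fold (adjusted p 3.40e-06), more than 99.7% of all genes. It rose by a further 1.51 ± 0.23, or 2.85-fold, by 24 days (adjusted p 0.00127), more than 97.0% of all genes, which made it 35.1-fold higher at 24 than at 8 days.

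Tdrd7 (gene ID 100121, chromosome 4) encodes a second LOTUS and tudor protein, which takes part in chromatoid body remodelling and is also known from the eye lens. Its values were -0.86, -0.68 and -0.71 at 8 days, 0, 0.33 and -0.10 at 16 days, and 1.06, 0.81 and 0.91 at 24 days. These groups did not overlap either. The rise was 0.83 ± 0.12 in the first interval (1.78-fold; adjusted p 0.000956) and 0.85 ± 0.12 in the second (1.80-fold; adjusted p 0.000918). With the replicate number as a block on the 6 numbered arrays the second rise was 0.77 and missed the threshold (adjusted p 0.057). It was also lost in limma treat, which tests against a 1.5-fold change (adjusted p 0.469).

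Tdrd3 (gene ID 219249, chromosome 14) moved least. It had -0.42, 0.00 and -0.38 at 8 days, 0, -0.06 and 0.01 at 16 days, and -0.01, 0.15 and 0.01 at 24 days. Replicate 2 of 8 days stood with the later arrays, so that 8 days overlapped both later ages, and 16 and 24 days overlapped too. Its change was 0.25 ± 0.12 by 16 days (adjusted p 0.159; 95% interval -0.01 to 0.51) and 0.06 ± 0.12 from 16 to 24 days (adjusted p 0.664). The rise of 0.32 ± 0.12 from 8 to 24 days, or 1.25-fold, had an adjusted p of 0.0412. That call was lost in 12 of 19 alternative fits, and the moderated F over the 3 ages missed the threshold (adjusted p 0.0874), which 50.7% of all genes passed. Without replicate 2 of 8 days Tdrd3 rose by 0.39 by 16 days (adjusted p 0.0192). Its call at 24 days was lost when replicate 1 or 3 of 8 days, replicate 1 or 3 of 16 days, or any array of 24 days was left out, with changes of 0.24 to 0.35 and adjusted p from 0.0538 to 0.13.

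**Figure D2:**
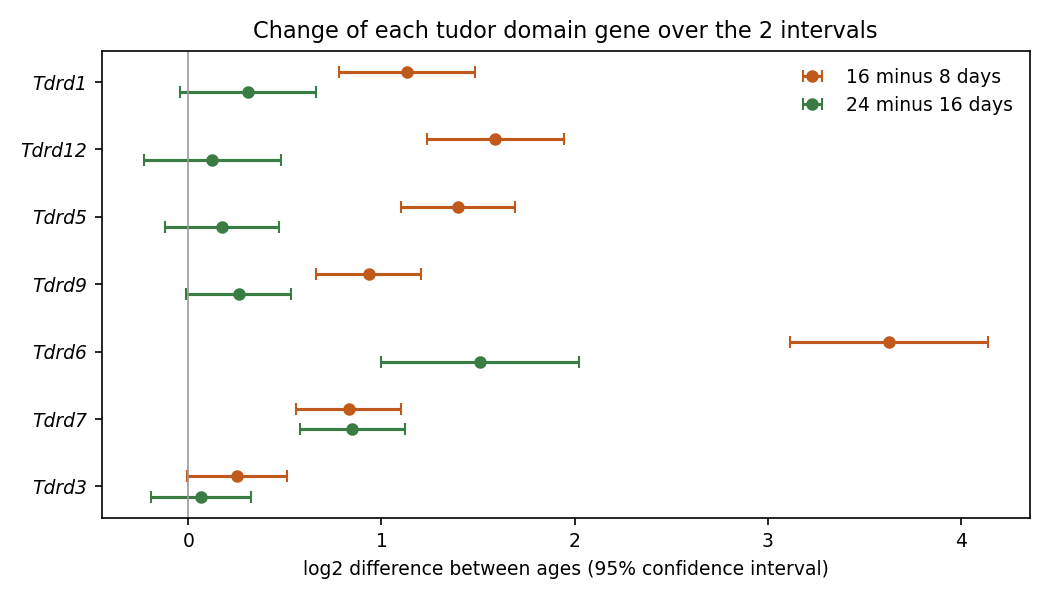
Log2 difference (horizontal axis, with 95% confidence interval from limma's moderated standard error) of each gene for 16 minus 8 days and 24 minus 16 days, 3 arrays per age. The 2 intervals are nearly equal for Tdrd7, at 0.83 and 0.85, while those of Tdrd12 are 1.59 and 0.12.

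The timing of the rises was set out by comparing the second interval with the first in the same fit. Of all genes, 5.38% differed between the intervals, and 2.31% had the lower change in the second. The second change minus the first was -1.46 ± 0.27 for Tdrd12 (adjusted p 0.0118), -1.22 ± 0.23 for Tdrd5 (adjusted p 0.0116) and -2.12 ± 0.40 for Tdrd6 (adjusted p 0.0119), so that the second change was the lower one in these 3. For Tdrd1 the difference between intervals was -0.83 ± 0.27 (adjusted p 0.145) and for Tdrd9 -0.67 ± 0.21 (adjusted p 0.121), both past an unadjusted p of 0.05 only. Tdrd7 had a difference of 0.02 ± 0.21 with a 95% interval from -0.45 to 0.49, and Tdrd3 one of -0.19 ± 0.20. Without replicate 3 of 8 days Tdrd9 was called as well (-0.79, adjusted p 0.0447), and Tdrd5 was not with the pair of outlying arrays left out (-1.02, adjusted p 0.0649) or with the replicate block (-1.27, adjusted p 0.0715).

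As a description of the same values, the share of the 24 minus 8 day log2 difference that was reached by 16 days was 92.8% for Tdrd12, 88.9% for Tdrd5, 78.7% for Tdrd1, 78.2% for Tdrd9, 70.6% for Tdrd6 and 49.4% for Tdrd7. With 1 array left out at a time these shares ranged from 87.0% to 99.9% for Tdrd12, from 64.7% to 75.1% for Tdrd6 and from 42.0% to 54.6% for Tdrd7. The ranges of Tdrd1, Tdrd5 and Tdrd9 overlapped each other, at 71.9% to 86.7%, 82.3% to 95.4% and 72.2% to 82.7%, so that no order among these 3 can be read. The range of Tdrd12 also overlapped that of Tdrd5, and the range of Tdrd6 those of Tdrd1 and Tdrd9, so that these neighbours have no order either. The range of Tdrd7 lay below those of the other 5. Tdrd3, whose 24 minus 8 day difference was only 0.32, had a share of 79.6%, with a range from 73.0% to 94.5%. All these ranges show the pull of single arrays and are not confidence intervals.

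Within ages the genes tended to be high or low on the same arrays. Replicate 2 of 16 days was the highest of its age for 6 of 7 genes, replicate 2 of 8 days the highest of its age for 5 of 7, and replicate 1 of 8 days and replicate 1 of 24 days the lowest of their ages for 5 of 7 each. How often all genes were highest or lowest on these arrays was not counted, so this cannot be called a trait of the tudor genes. Olfactory receptor genes were raised in replicate 2 of 16 days and replicate 1 of 8 days and not in the other 2 of these arrays, where their median was -0.02 (8 days) and -0.05 (24 days). Without the pair of outlying arrays, the 16 minus 8 day rises were 0.91 for Tdrd1, 1.35 for Tdrd12, 1.26 for Tdrd5, 0.81 for Tdrd9, 3.44 for Tdrd6 and 0.65 for Tdrd7, with 6 of 7 genes called as before. Over the 9 arrays, the pair with the smallest root mean square difference was Tdrd12 and Tdrd5, at 0.13 log2 units (Pearson r 0.994), followed by Tdrd1 and Tdrd5 at 0.15 (r 0.983). Tdrd7 and Tdrd12 had r 0.867, and Tdrd9 and Tdrd3 had r 0.677. These correlations rest on 9 arrays that share 3 ages and have no test.

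By the same measure, the genes closest to each tudor gene over the 9 arrays were named, 3 for each. The closest to Tdrd6 was Adam32, of the ADAM family, many members of which are sperm surface proteins, with a root mean square difference of 0.10, followed by Ccdc38 at 0.17 and Marchf10 at 0.18. Tdrd12 was closest to Boll, an RNA-binding protein of the DAZ family in meiotic germ cells, at 0.09, then to Klhdc1 and Uggt2 at 0.11. Klhdc1 was also the closest to Tdrd5, at 0.09, followed by Pcgf6, a Polycomb group protein, at 0.11, and the kinase Nek4 at 0.12. Tdrd1 was closest to the RNA-binding protein Khdrbs3 at 0.11, then to Diablo, an activator of caspases, at 0.13, and Pcgf6 at 0.14. For Tdrd9 they were Phtf1 at 0.09, and Ago4, an argonaute protein that germ cells express, and Btaf1 at 0.11. Tdrd7 was followed by Wdpcp at 0.07, and the phosphatidylserine synthase Ptdss2 and Ccdc130 at 0.08, and Tdrd3 by Asb3 at 0.06 and by the mitochondrial ribosomal protein Mrpl35 and Gtdc1 at 0.07.

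The other tudor domain genes on a chosen list did not move as a group. Of 9 listed, 8 had a row of their own, and 3 rose and 2 fell between 8 and 16 days, with a median change of 0.16. Falls at 16 days were called in 14.3% of all genes, falls from 16 to 24 days in 20.1% and falls from 8 to 24 days in 35.2%. Those that rose are known from germ cells, though breadth of expression was not measured here. Stk31, a protein with a tudor and a kinase-like domain, rose by 1.24 ± 0.23 (adjusted p 0.00337), Rnf17, a RING finger protein with tudor domains, by 1.07 ± 0.19 (adjusted p 0.00246) and Tdrkh, the mitochondrial partner of PIWI proteins, by 0.83 ± 0.15 (adjusted p 0.00304). None of these 3 was called between 16 and 24 days, where their changes were -0.03 ± 0.23, 0.17 ± 0.19 and -0.19 ± 0.15. None of the rest was called higher by 16 days. Snd1, a nuclease-like protein of RNA-induced silencing, fell by 0.38 ± 0.10 (adjusted p 0.0235) and by a further 0.61 ± 0.10 after 16 days (adjusted p 0.00226). The mitochondrial anchor Akap1 measured -0.35, -0.72 and -0.36 at 16 days, against 0.22, 0.23 and 0.28 at 8 days, and then rose by 0.73 ± 0.19 by 24 days (adjusted p 0.0165). The values of Akap1 at 24 days were 0.74, 0 and 0. The first falls of Snd1 and Akap1 were each lost without replicate 2 or 3 of 8 days or replicate 2 of 16 days, with adjusted p up to 0.0743 for Snd1 and 0.0713 for Akap1. With the pair of outlying arrays left out the 3 rises stayed called, while these falls (adjusted p 0.0683 for Snd1 and 0.119 for Akap1) and the later rise of Akap1 (0.60, adjusted p 0.0572) were lost. Smn1, which assembles spliceosomal particles, and the splicing factor Smndc1 had differences of 0.04 ± 0.10 and -0.06 ± 0.12 at 16 days, neither called. Lbr, the lamin B receptor, fell by 0.44 ± 0.12 between 16 and 24 days (adjusted p 0.0183), a call lost with arrays centred on their medians (-0.35, adjusted p 0.0722), without replicate 1 or 3 of 16 days and without replicate 1 of 24 days (adjusted p up to 0.0748).

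The PIWI proteins and their partners rose mostly by 16 days. Of 18 listed 15 were measured, and 12 rose and 1 fell, with a median change of 0.75; with the pair of outlying arrays left out 10 rose. Piwil1, the PIWI protein MIWI that TDRD6 binds, rose by 3.69 ± 0.13 (adjusted p 7.53e-08), close in size to Tdrd6, and its difference after 16 days was 0.29 ± 0.13 (adjusted p 0.105, and 0.0257 without replicate 2 of 16 days). Piwil2, or MILI, rose by 0.84 ± 0.11 (adjusted p 0.000402), the small zinc finger protein Gtsf1 by 1.01 ± 0.19 (adjusted p 0.00346) and Adad2, an adenosine deaminase domain protein of spermatocyte granules, by 0.86 ± 0.14 (adjusted p 0.00156). Piwil4, or MIWI2, the partner of TDRD9 and TDRD12 in the fetal testis, went the other way. It fell by 0.38 ± 0.10 by 16 days, a call lost without replicate 2 of 8 days or replicate 1 or 2 of 16 days (adjusted p up to 0.0722), and by 0.69 ± 0.10 after it (adjusted p 0.000813). Between 16 and 24 days 4 of the 15 rose and 2 fell, with a median of 0.05; without replicate 1 of 16 days 2 rose and 2 fell, without replicate 2 of 16 days 5 rose and 3 fell, and with the pair of outlying arrays left out 6 rose and 3 fell. Gtsf1 rose by 0.95 ± 0.19 (adjusted p 0.00475), and Henmt1, which methylates the end of piRNAs, by 0.59 ± 0.14 (adjusted p 0.0109, and 0.0503 without replicate 1 of 16 days).

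A further list held 18 genes of germ granules and germ cells, mostly RNA proteins, with the chaperone Hspa2 and the kinesin Kif17 among them. Of these, 7 rose and 3 fell by 16 days, with a median of 0.13, and 5 rose and 8 fell between 16 and 24 days, with a median of -0.24. With each array centred on its median, 5 rose and 5 fell in the second interval. The falls numbered 1 in the first interval without replicate 2 of 8 days or replicate 1 or 2 of 16 days, and 5 in the second without replicate 1 of 16 days or replicate 1 of 24 days. The rises numbered 6 in the first interval when any array other than replicate 2 of 24 days was left out. In the second they numbered 4 without replicate 1 or 3 of 16 days or replicate 1 or 3 of 24 days. The Y-box protein Ybx2, which stores germ cell mRNA, rose by 3.06 ± 0.14, the chaperone Hspa2 by 2.65 ± 0.10, the chromatoid body helicase Ddx25 by 1.44 ± 0.16 and the meiotic regulator Meioc by 1.34 ± 0.14 by 16 days, with adjusted p from 1.36e-07 to 0.00016. In the second interval Kif17, a kinesin reported at the chromatoid body, rose by 1.41 ± 0.22 (adjusted p 0.00153) and Ddx25 by 0.95 ± 0.16, while the RNase Dicer1 fell by 0.97 ± 0.14 (adjusted p 0.000932).

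Of a list of arginine methyltransferases, whose marks tudor domains read, none was called higher by 16 days, and Prmt7 was called higher after it. The list held 12 genes, among them Wdr77, Clns1a and Riok1, which are partners of PRMT5 and not methyltransferases. Of the 12, 0 rose and 2 fell by 16 days by limma, with a median of -0.09. None had a higher value at an unadjusted p under 0.05. Prmt1 fell by 0.54 ± 0.13 (adjusted p 0.0113) and Prmt2 by 0.43 ± 0.10 (adjusted p 0.0113). Prmt5, which makes the symmetric dimethylarginine of PIWI proteins, had differences of 0.09 ± 0.11 at 16 days (adjusted p 0.713) and -0.20 ± 0.11 after it (adjusted p 0.169). From 8 to 24 days 1 rose and 5 fell, where 19.2% of all genes rose and 35.2% fell. The gene that rose was Prmt7, by 0.44 ± 0.09 (adjusted p 0.00248). Between 16 and 24 days 1 rose and 4 fell, or 1 and 1 with each array centred on its median. The rise was again that of Prmt7, by 0.34 ± 0.09 (adjusted p 0.0196). Wdr77, the partner of PRMT5, fell by 0.44 ± 0.08 (adjusted p 0.00368). Prmt3 fell by 0.60 ± 0.16 (adjusted p 0.0171) and Prmt2 by 0.43 ± 0.10 (adjusted p 0.0103), both lost with centred arrays (adjusted p 0.0579 and 0.0627). Without replicate 1 or 3 of 16 days or replicate 1 or 3 of 24 days, no gene of this list rose and 2 or 3 fell. Without replicate 2 of 16 days, and also with the pair of outlying arrays left out, 1 rose and 6 fell. Among 6 partners of TDRD3, 2 rose by 16 days, Top3b by 0.36 ± 0.09 (adjusted p 0.0124) and the FMRP relative Fxr1 by 0.33 ± 0.10 (adjusted p 0.04). The call of Fxr1 was lost with centred arrays (adjusted p 0.0597) and when any array other than replicate 3 of 8 days was left out, with adjusted p up to 0.117. Between 16 and 24 days 1 partner rose and 3 fell, with Fxr1 at 0.46 ± 0.10 (adjusted p 0.00828), Fmr1 at -0.62 ± 0.15 (adjusted p 0.0108) and Polr2a, the large subunit of RNA polymerase II, at -0.44 ± 0.10 (adjusted p 0.00802). Dhx9 was at -0.36 ± 0.11 (adjusted p 0.0301). Its call was lost with centred arrays, without any array of 16 days and without replicate 1 or 3 of 24 days, which left 2 falls. With the pair of outlying arrays left out 4 fell.

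**Figure D3:**
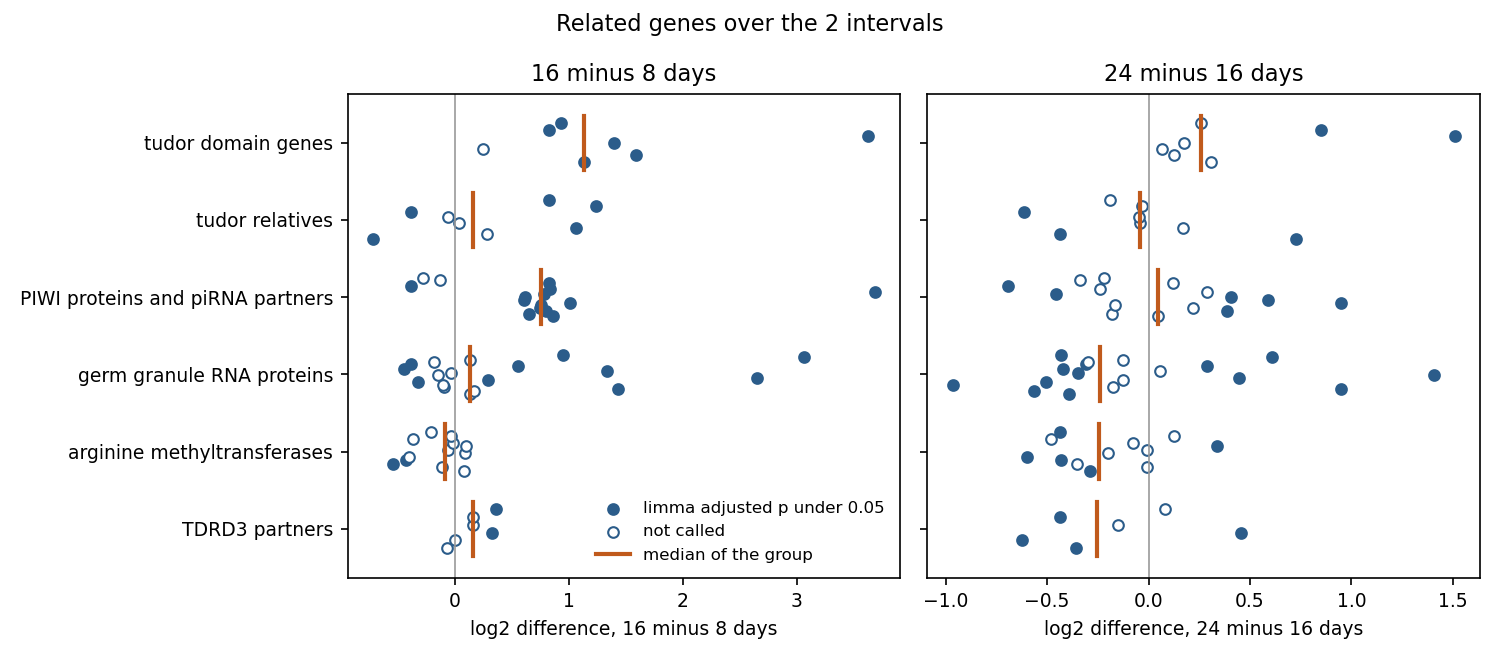
Log2 difference (horizontal axis) of each gene in the 7 tudor domain genes and 5 groups of related genes, for 16 minus 8 days and 24 minus 16 days, with filled points for a limma adjusted p under 0.05, open points for genes not called, and a bar at the group's median. The median of the tudor domain genes is 1.13 in the first interval and 0.26 in the second. That of the arginine methyltransferase list, which includes partners of PRMT5, is -0.09 and -0.24.

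Markers of germ cell stages moved over the same ages. The mean of 12 spermatocyte markers ranged from -2.38 to -2.18 over the arrays of 8 days, from 0.01 to 0.40 at 16 days and from 0.68 to 0.83 at 24 days, and all 12 rose by 16 days, with 4 rising further. The mean of the 7 tudor genes ran from -1.46 to -1.28, from -0.06 to 0.26 and from 0.42 to 0.61 on the same arrays. The mean of 10 spermatid markers was -0.28 to 0.02, -0.29 to 0.00 and 3.27 to 4.36, and by limma 0 of 10 were called by 16 days, with 0 of 10 at an unadjusted p under 0.05, and 10 of 10 rose between 16 and 24 days. Of 10 markers of undifferentiated spermatogonia 8 fell and 1 rose from 8 to 24 days, and the mean was 0.22 to 0.41 at 8 days, -0.21 to 0.03 at 16 days and -0.59 to -0.45 at 24 days. Of 8 markers of differentiating spermatogonia 7 fell and 1 rose over the same span. Most somatic markers also fell over that span, 10 of 11 for Sertoli cells, 5 of 6 for Leydig cells with 1 that rose, 6 of 6 each for peritubular myoid and endothelial cells, and 3 of 6 for macrophages. With each array centred on its median, the falls numbered 8 for Sertoli cells, 5 for endothelial cells and 7 for undifferentiated spermatogonia. The Leydig falls numbered 3 without replicate 3 of 24 days. The largest changes from 8 to 24 days were those of Ldhc (5.62) and Adam2 (5.52) among spermatocyte markers and Smcp (5.67) and Acrv1 (5.37) among spermatid markers. Sall4 (-1.65) and Zbtb16 (-1.63) led the undifferentiated and Ccnd2 (-1.81) and Uchl1 (-1.56) the differentiating spermatogonia. Among somatic markers they were Amh (-2.36) and Gata4 (-1.61) of Sertoli cells, Hsd17b3 (-3.24) and Hsd3b6 (2.24) of Leydig cells, Acta2 (-0.95) and Smtn (-0.92) of myoid cells, Cdh5 (-1.62) and Kdr (-1.16) of endothelial cells, and Cx3cr1 (-0.61) and Csf1r (-0.51) of macrophages. The means were 0.55 to 0.76, -0.19 to 0.09 and -0.60 to -0.34 for Sertoli cells at 8, 16 and 24 days. Because values are centred, no marker can be called absent at an age, and the part of cell makeup in the changes of the tudor genes was not tested.

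**Figure D4:**
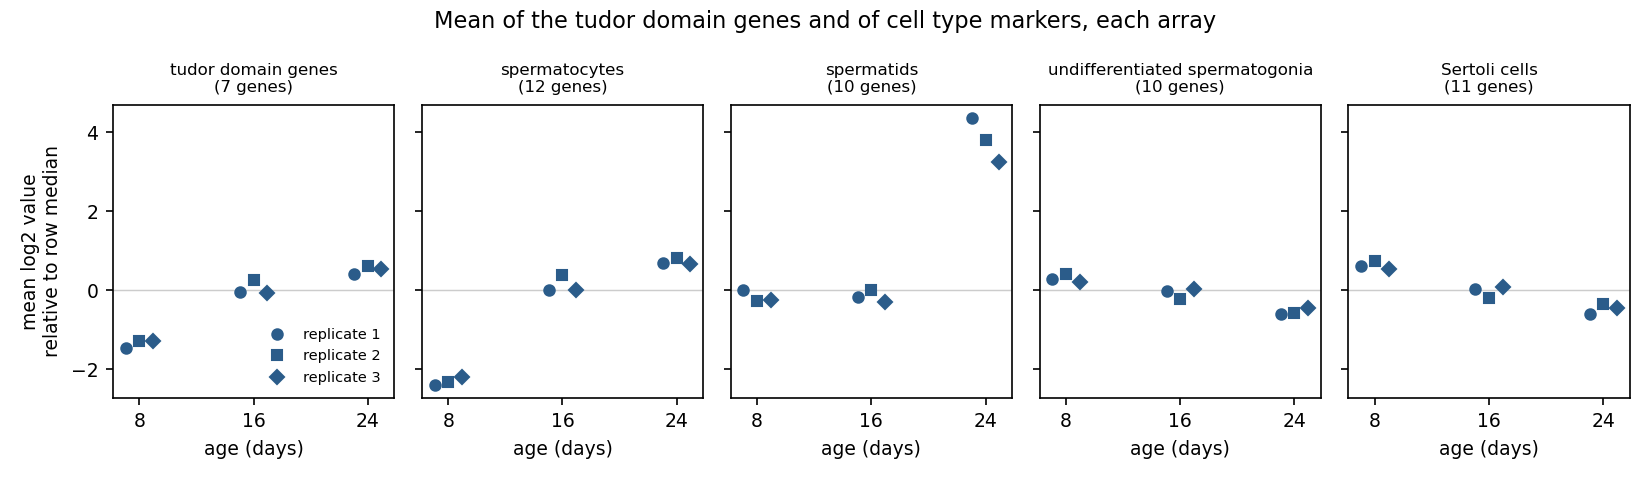
Mean log2 value relative to the row median (vertical axis) over the 7 tudor domain genes and over markers of spermatocytes, spermatids, undifferentiated spermatogonia and Sertoli cells, against age in days, with a point for each array. Spermatocyte markers lie between -2.38 and -2.18 at 8 days and above 0 at 16 days, and spermatid markers reach 3.27 to 4.36 at 24 days.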

How the data were processed

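Whole-testis RNA was measured on 9 Affymetrix arrays after QIAzol and miRNeasy extraction and biotin labelling by the whole-transcript sense-target protocol, per the labels. The authors deposited log2 values for 28815 rows, centred by row: with blank cells at 0 each row has a median of 0, so the 38964 blanks were read as 0. The background correction and normalization are not given in the sources used here. Rows with exactly 1 gene symbol (21780) were averaged per gene into 19935 genes, and gene IDs of 21689 rows matched the RefSeq table (GRCm38.p6). The fit used limma 3.58.1 in R 4.3.3 (a mean per age, all 9 arrays, eBayes with 6 residual and 3.82 prior degrees of freedom), with 2-sided tests and Benjamini-Hochberg adjustment over all genes. The fit was tested on simulated data. No depth applies to arrays, and their number limits the precision. Median changes of all genes were -0.02, -0.16 and -0.18 for 16 versus 8, 24 versus 16 and 24 versus 8 days, and centring each array on its median moved them by 0.03, 0.09 and 0.12. The 7 genes, the lists of related genes and markers, and the tests were chosen with earlier results of these data known. Named genes are all 7, all measured relatives, the up to 4 and up to 3 largest called changes of each related list in the first and second interval, the up to 2 largest of each marker list from 8 to 24 days, the closest genes over 9 arrays leaving out unnamed genes, and genes of small counts chosen after their values were seen. Prmt5, Smn1 and Smndc1 are given as values. Alternatives were centred arrays, blanks left missing, the row of largest spread, all rows, array weights, robust eBayes, only the ages compared, treat against 1.5-fold, a replicate block, 2 arrays with raised olfactory receptor genes (1027 genes) left out, and each array left out in turn.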

Additional observations from a re-analysis of the deposited data

How the results depend on the processing

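The rises of Tdrd12, Tdrd5 and Tdrd6 by 16 days were called in all 19 alternatives, with ranges of 1.35 to 1.72, 1.26 to 1.48 and 3.32 to 3.86. Those of Tdrd1, Tdrd9 and Tdrd7 were called in 18 of 19 each and lost in limma treat, which tests against a 1.5-fold change (adjusted p 0.0801, 0.183 and 0.596). Under treat 3 of the 7 genes were called in the first interval, 1 in the second and 0 for the difference between intervals (adjusted p 0.165 for Tdrd12, 0.285 for Tdrd5 and 0.0706 for Tdrd6), and the genes called in all were 696, 793, 3578 and 434 for 16 versus 8, 24 versus 16 and 24 versus 8 days and the difference between intervals. With the pair of arrays of raised olfactory receptor genes left out, the median rise of the 7 genes by 16 days was 0.911. The replicate numbers are not stated to pair samples, and deviations of same-numbered arrays correlated at -0.46 to 0.20. The highest correlation among the numbered arrays was 0.60, between replicate 1 of 8 days and replicate 2 of 16 days, the pair of outlying arrays. With a replicate block on the 6 numbered arrays 1971, 1294 and 550 genes were called in the first interval, the second and their difference, 5934 by the F test, and 1 of the 7 genes in the second interval; the fit has fewer samples. Leaving out 1 array gave 3669 to 8070 genes called between 16 and 24 days, lowest without replicate 1 of 16 days, and 613 to 1047 for the difference between intervals. Of the 21 closest genes, 3 were also among the closest by Pearson r. The 6 genes other than Tdrd3 were called at 24 versus 8 days in all 19 alternatives.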
